A study of Mus musculus with 5 samples.

Results

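The genes described here encode the receptor-proximal signalling machinery of the T cell receptor: the CD3 chains and CD4, the kinases they recruit, the adaptors and enzymes that pass the signal on, and the phosphatases and adaptors that restrain it. They were taken from a list of 42 genes by the gene symbol of the array's annotation. Of these, 41 genes with 87 probe sets were found among 18193 genes and 45101 probe sets, and 1 listed gene was not analysed here. Expression was measured on 5 Affymetrix arrays of CD4+ T cells from TCR-transgenic SCID mice on a Balb/c background, aged 7 to 12 weeks. The 3 activated samples were tumor-specific CD4+ GB113+ T cells sorted at 95% purity or better from the pooled draining axillary lymph nodes of 12 to 15 mice, on day 8 after a subcutaneous injection of 100000 MOPC315 myeloma cells in 250 µl of growth factor-reduced Matrigel. The 2 naive samples were tumor-specific CD4+ T cells from the pooled nodes of such mice without tumor cells, otherwise handled alike, for which no purity is given. Both groups carry the same transgenic receptor and the same SCID background, each sample was an independent experiment, and no group given Matrigel without tumor cells was analysed here. The comparison asks how the signalling transcripts differ in abundance between activated T cells of the draining nodes and naive cells with the same receptor.

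When the receptor binds its peptide and MHC ligand, Src family kinases phosphorylate the tyrosine motifs of the CD3 chains, ZAP-70 docks there, and it phosphorylates the adaptors LAT and SLP-76. On this scaffold Tec family kinases activate PLC-gamma-1, and Ras activators, VAV1 and protein kinase C theta carry the signal towards MAP kinases, the actin cytoskeleton and NF-kB. The kinase CSK, the phosphatases PTPN6 and PTPN22 and several adaptors and ubiquitin ligase partners limit the signal. In naive T cells much of this machinery is already present as protein, and its activity is regulated to a large extent by phosphorylation, which an array does not measure.

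The values are probe set intensities on a linear scale, and for each gene the brightest probe set was used. Fold changes are differences in mean log2(intensity + 16), activated minus naive, with the standard error of limma's moderated test; the added 16 makes the change of a dim probe set look smaller than it is. A gene is called higher or lower at an adjusted p under 0.05 over all tested genes (Benjamini-Hochberg, two-sided). Different probe sets bind their targets with different strength, so levels are compared between arrays and never between genes. All 41 genes passed the intensity filter, and each lay above the filter intensity on all 5 arrays. In a bulk sample, fewer cells that hold a transcript and less of it per cell cannot be told apart.

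The 7 general T cell markers with a probe set (among them Cd2, Cd5 and Thy1) were above the filter on all arrays. Of these, Thy1 was called lower and Cd5 and Cd6 higher in activated cells. Of 7 activation markers, 5 were called higher in activated cells, Mki67 and Ctla4 included. The activation markers Cd69 and Il2ra were not called, at log2 fold changes of -0.22 and -0.24. The B cell markers Cd79a and Ms4a1 were at intensities of 14.7 or less in activated and 15.2 or less in naive cells, close to the filter intensity of 10.6 to 13.4. Ighm, the immunoglobulin mu chain, was called lower, at 889.8 to 1086.6 on activated arrays, against 3173.5 and 3520.0 on naive arrays, and the B cell marker Cd22 was called higher. Of the 3 CD8 T cell list genes, Cd8b1 was called lower, Eomes higher and Cd8a neither. Cd8b1 read 326.5, 246.8 and 275.0 on activated arrays, against 797.6 and 995.7 on naive arrays. Cd8a read 79.2, 24.4 and 18.7 on activated arrays, against 54.0 and 44.6 on naive arrays. Of the stroma and endothelium markers, Pecam1 alone was called, and it was higher. The sums of these markers were 352.8 to 438.6 on activated arrays, against 223.7 to 252.1 on naive arrays. Most of each sum was Pecam1, at 305.1, 258.6 and 345.4 on activated arrays, against 157.9 and 168.7 on naive arrays. Of the 12 myeloid markers, 10 were tested and 0 called (at an unadjusted p under 0.05, the count was 2), and their summed intensity ran from 189.1 to 3702.8 on activated arrays, against 233.5 to 421.3 on naive arrays. Of the 7 NK cell markers with a probe set, 6 were tested and 0 called (1 at an unadjusted p under 0.05), with sums from 734.2 to 3905.1 on activated arrays, against 1339.3 to 1465.8 on naive arrays. Activated replicate 1 held the highest sum in both lists. Of the 6 plasma cell and myeloma markers, 5 were tested, with Irf4 called higher and Prdm1 lower in activated cells. The sums of these markers were 1257.7 to 1393.8 on activated arrays, against 1254.4 to 1371.6 on naive arrays. The part of transcripts of other cell types in the results below was not tested beyond leaving activated replicate 1 out.

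Of 41 tested genes, 8 were higher in activated cells (Lax1, Ptpn22, Fyn, Bcl10, Sh2d2a, Zap70, Lcp2 and Ptpn6) and 3 lower (Tec, Pag1 and Sit1). That is 26.8% of the list, where 10.5% of all 12860 tested genes were called, 6.37% higher and 4.14% lower. The list was chosen with earlier results of these data known. Its genes read 44.7 or more on every array, while all tested genes include some near the filter intensity. The difference between the shares was not tested. The log2 fold changes of the called genes ran from 0.61 to 1.36 among the rises and from -1.56 to -1.16 among the falls. The median over the 41 genes was -0.03 (-0.0017 to 0.059 on leaving out 1 array), with 20 above 0 and 21 below, against -0.03 over all tested genes. The median size of the change, regardless of sign, was 0.37 on the log2 scale for the list and 0.27 for all tested genes. The activated and naive arrays did not overlap for 24 of the 41 genes, or 58.5%, against 41.0% of all tested genes. Of the 41, 14 were higher in activated cells, against 2608 of 12860 tested genes (20.3%). Another 10 of the 41 were lower, against 2659 of 12860 (20.7%). Of the 41 genes, 5 were called with a change of at least 1 in size, against 714 of 12860 tested genes (5.55%). The spread between replicates of these genes was small, with a median residual SD of 0.16 on the log2 scale, against 0.22 over all tested genes.

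The count of rises rests on the full set of arrays. It was 5 without activated replicate 1, 7 without activated replicate 3, and 2 on dropping the second activated array or either of the naive ones; the falls stayed at 3 except without naive replicate 2, where they were 2. For the 30 genes that did not pass, the 95% interval of the log2 fold change lay within -1 to 1 for 29. Those bounds correspond to a change of less than 2-fold in either direction. The median half-width of the 30 intervals was 0.39. The interval lay above 0 for Cd247, Cd4, Sla and Ubash3a and below 0 for Sos1, Prkcq and Rhoh. These intervals are not adjusted for the number of genes tested. The interval of Sla reached 1.27.

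**Figure D1:**
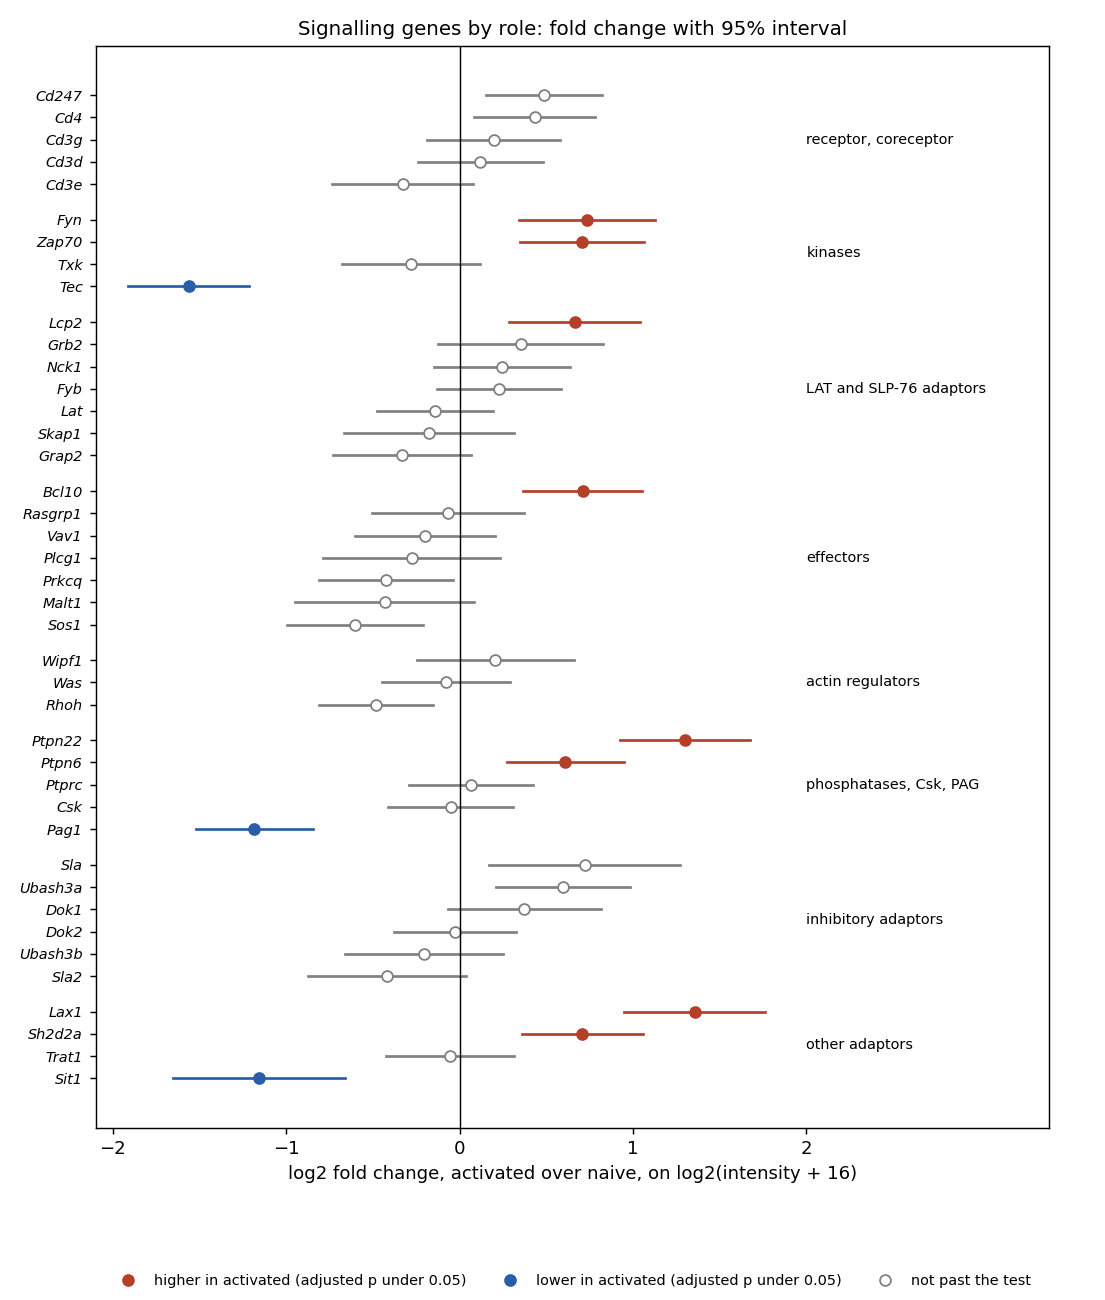
Log2 fold change (horizontal axis, activated over naive, on log2(intensity + 16)) of the 41 genes, grouped by role, with bars for the 95% interval of the moderated test; red marks a rise, blue a fall and open grey points genes that did not pass. The receptor chains lie between -0.33 and 0.49, and the points past -1 or 1 are Tec, Pag1, Sit1, Ptpn22 and Lax1.

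Promoters are shown for 3 called genes, 2 that rose and 1 that fell, chosen after the motif matches were seen as examples that carry one. Each is the 250 bases before a RefSeq transcript start in GRCm38.p6, read 5' to 3' on the gene's strand, with matches in capitals to 4 motifs searched on both strands: CGGAAG (ETS factors), TGTGGT (RUNX factors), TGANTCA (AP-1) and GGGANTTCC (NF-kB). Ptpn22 lies at chr3:103860027-103860276 on the plus strand. It has 2 starts, and the one shown was picked by its number of matches, which are both to the RUNX motif. Bcl10 lies at chr3:145924012-145924261 on the plus strand and Tec at chr5:72868449-72868698 on the minus strand, each with a match to the ETS motif.
Ptpn22: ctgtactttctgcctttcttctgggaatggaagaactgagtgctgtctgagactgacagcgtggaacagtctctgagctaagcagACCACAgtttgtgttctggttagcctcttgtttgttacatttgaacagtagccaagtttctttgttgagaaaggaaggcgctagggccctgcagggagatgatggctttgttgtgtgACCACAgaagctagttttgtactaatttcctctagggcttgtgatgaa
Bcl10: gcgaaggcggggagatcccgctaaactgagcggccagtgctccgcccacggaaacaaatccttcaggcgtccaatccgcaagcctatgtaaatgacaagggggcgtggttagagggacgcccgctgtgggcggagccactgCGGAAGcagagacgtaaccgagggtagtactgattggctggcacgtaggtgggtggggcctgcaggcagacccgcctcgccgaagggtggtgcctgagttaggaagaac
Tec: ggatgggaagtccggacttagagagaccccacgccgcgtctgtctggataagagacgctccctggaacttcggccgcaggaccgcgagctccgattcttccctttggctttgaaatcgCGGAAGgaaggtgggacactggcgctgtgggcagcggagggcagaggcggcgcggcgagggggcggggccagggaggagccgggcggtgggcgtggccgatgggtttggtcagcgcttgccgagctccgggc
Of the 41 genes, 33 had a promoter in the RefSeq table, with 45 starts. The ETS motif was found in 4 of these 45 windows, or 8.89%, against 13.6% of 32841 windows of all genes. The RUNX motif was found in 10, or 22.2%, against 14.05%, and the AP-1 and NF-kB motifs in 0, against 6.75% and 1.43%. Among the 9 called genes with a promoter, the ETS motif was in Bcl10, Ptpn6 and Tec, and the RUNX motif in Lax1, Ptpn22 and Zap70. A match is a run of letters and does not show that a factor binds there.

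Among the receptor chains, none of the 5 passed the test. CD3-gamma, CD3-delta and CD3-epsilon pair around the receptor's antigen-binding chains, and CD3-zeta, encoded by Cd247, carries most of its signalling motifs. Cd3d had a mean intensity of 4515 ± 387 (SD, n = 3) on activated arrays, against 4150 ± 153 (SD, n = 2) on naive arrays, a log2 fold change of 0.12 (95% interval -0.24 to 0.48, adjusted p = 0.72). For Cd3g it was 0.20 (interval -0.19 to 0.58, adjusted p = 0.54), and for Cd3e -0.33 (interval -0.74 to 0.08, adjusted p = 0.31), and the groups overlapped for these 3 genes. Cd247 had intensities of 1408.2, 1615.2 and 1522.3 on activated arrays, against 1058.6 and 1091.2 on naive arrays. All activated arrays were above both naive ones, but the log2 fold change of 0.49 ± 0.15 (SE) had an adjusted p of 0.071; it passed in 2 of 19 alternative settings. Of its other probe sets, that with an alternative-transcript suffix lay at 0.75 and the 2 dim ones at -0.24 and -0.19, none past the test over all probe sets.

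Cd4, the coreceptor for MHC class II and part of the sort, had intensities of 1049.4, 1119.4 and 915.4 on activated arrays, against 778.2 and 732.6 on naive arrays, with an adjusted p of 0.12. Its second probe set read 491.5, 393.2 and 503.3 on activated arrays, against 268.2 and 114.0 on naive arrays. The groups did not overlap on either probe set, and the second had a log2 fold change of 1.31 (SE 0.29, at an adjusted p of 0.023 over all 29201 tested probe sets). The gene passed in 2 of the 19 alternative settings.

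Of the 4 tested kinases, 2 rose and 1 fell, or 75%, where 10.5% of all tested genes were called. With 4 genes the share is coarse, and the difference was not tested. Tec, the founding member of the Tec kinase family, which acts on PLC-gamma downstream of antigen receptors, had the largest change among the brightest probe sets of the machinery. Its intensities were 149.0, 155.9 and 141.9 on activated arrays, against 471.9 and 469.3 on naive arrays. The arrays of each group lay close together and far from the other group. The log2 fold change was -1.56 (SE 0.16, at an adjusted p of 1.5e-04), and the ratio of mean intensities was 0.316. Txk, the other Tec family kinase on the list, known as resting lymphocyte kinase, had 465 ± 60.4 (SD, n = 3) on activated arrays, against 569.6 ± 99.2 (SD, n = 2) on naive arrays, and overlapping groups (log2 fold change -0.28, adjusted p = 0.39).

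Fyn encodes a Src family kinase of T cells that phosphorylates receptor motifs and adaptors. Its intensities were 1616.1, 1653.3 and 1259.6 on activated arrays, against 970.7 and 823.4 on naive arrays. The log2 fold change was 0.73 (SE 0.18, at an adjusted p of 0.024), and the groups did not overlap on its second probe set either, which lay at 0.49 (adjusted p = 0.17 over all probe sets). Fyn no longer passed when activated replicate 1, activated replicate 2 or either naive array was dropped (0.68, 0.66, and 0.85 and 0.62), with no filter or with eBayes without trend. Zap70, the kinase that binds the phosphorylated CD3 chains, had intensities of 969.5, 889.7 and 777.9 on activated arrays, against 509.6 and 551.3 on naive arrays. Every activated array was well above both naive arrays, with a log2 fold change of 0.71 (SE 0.16, at an adjusted p of 0.019). The 2 dimmer probe sets of Zap70 overlapped between groups and lay at -0.33 and -0.13, and averaging all 3 brought the log2 fold change to 0.08 and ended the call. Its call was also lost without the same 4 arrays as for Fyn, at 0.63, 0.70, 0.65 and 0.76, and with eBayes without trend.

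**Figure D2:**
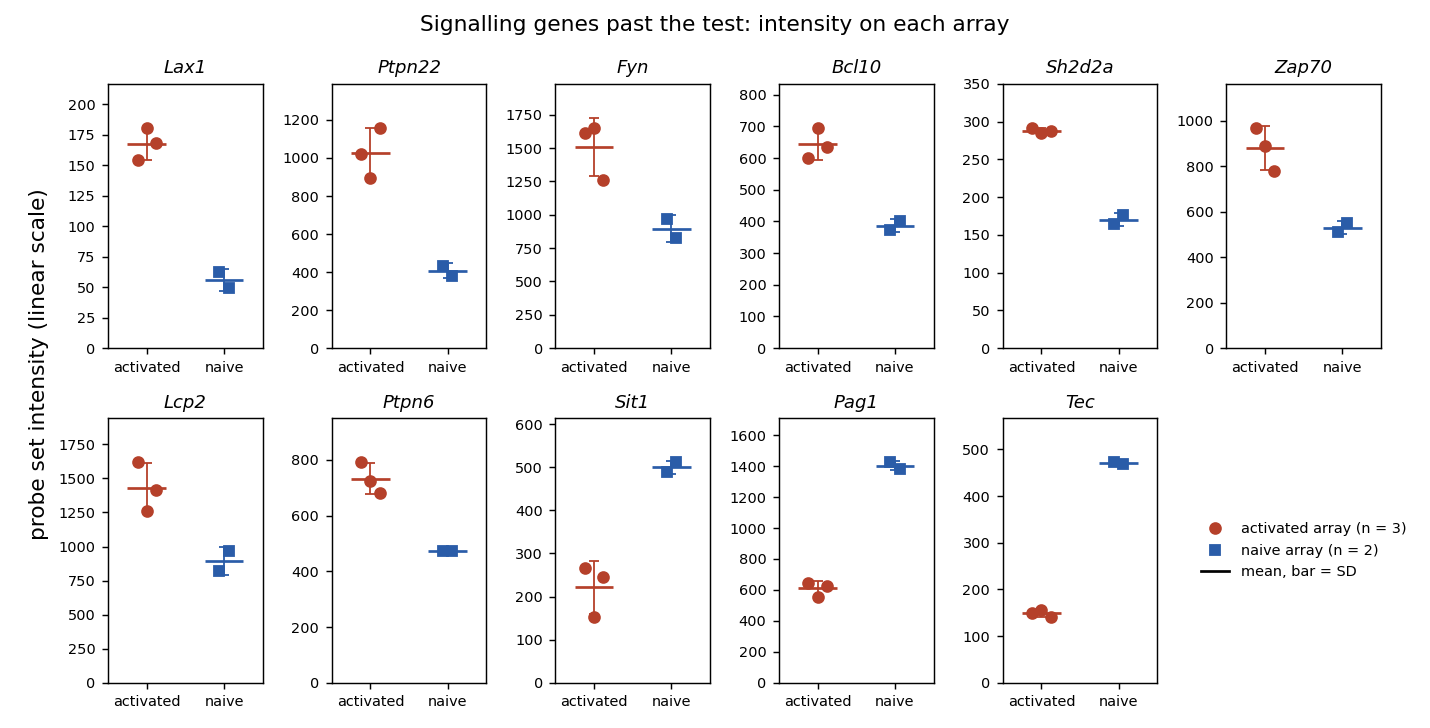
Probe set intensity (vertical axis, linear scale from 0) on each activated array (red circles, n = 3) and naive array (blue squares, n = 2) for the 11 genes that passed, with horizontal lines for the mean and bars for the SD. In every panel the groups are apart; Tec reads 149.0, 155.9 and 141.9 in activated cells, against 471.9 and 469.3 in naive cells.

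Of the 7 adaptors that assemble around LAT and SLP-76, Lcp2 alone was called, or 14.3%, against 10.5% of all tested genes. Lcp2 encodes SLP-76, the scaffold that ties PLC-gamma-1 and VAV1 to LAT. It read 1617.1, 1257.5 and 1414.1 on activated arrays, against 822.5 and 967.9 on naive arrays. The groups were apart on this and on its second probe set (log2 fold changes of 0.66 ± 0.17, SE, adjusted p = 0.032 over genes, and 0.40, adjusted p = 0.24 over probe sets). This call did not hold when any one array was dropped, the log2 fold change then running from 0.55 without naive replicate 1 to 0.78 without naive replicate 2. Under median centring, with no filter and with eBayes without trend, Lcp2 did not pass either.

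Lat itself, the membrane scaffold, was at 1803 ± 104 (SD, n = 3) on activated arrays, against 1989 ± 50.2 (SD, n = 2) on naive arrays, its log2 fold change -0.14 (interval -0.48 to 0.19, adjusted p = 0.63). Grap2, which encodes GADS, the bridge between LAT and SLP-76, was at 82.0 ± 5.65 (SD, n = 3) on activated arrays, against 107 ± 2.19 (SD, n = 2) on naive arrays. Its groups did not overlap and both its probe sets were lower, at -0.33 and -0.40, but it did not pass (adjusted p = 0.29). Grb2, the adaptor that brings SOS1 to LAT, read 450.9, 552.1 and 362.3 on activated arrays, against 414.1 and 292.2 on naive arrays, and overlapped. Its log2 fold change was 0.35 (adjusted p = 0.36), and its other probe set had the opposite sign, at -0.09. Skap1, an adaptor that links SLP-76 partners to integrin activation, lay at -0.18 on the log2 scale (adjusted p = 0.69), and activated replicate 1, at 715.3, was its lowest array.

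Fyb encodes ADAP, the partner of SKAP1. It read 2108.8, 2383.3 and 2564.7 on activated arrays, against 1895.7 and 2111.1 on naive arrays, while its other probe set lay at -0.15, the opposite sign to 0.23. Nck1, which couples SLP-76 to actin regulators, read 191.2, 169.0 and 186.9 on activated arrays, against 170.9 and 133.3 on naive arrays, and overlapped (log2 fold change 0.25, adjusted p = 0.44). The 2 other Nck1 probe sets were dim and lay at -0.31 and -0.07.

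Of 7 effectors, 1 was called, or 14.3%, against 10.5% of all tested genes. The other 6 did not pass, with log2 fold changes below 0 on their brightest probe sets. Those of Plcg1 and Rasgrp1 turned above 0 in some alternative settings. Over all tested genes, 6829 of 12860 were below 0. The one called was Bcl10, which with MALT1 and a CARMA scaffold forms the complex that leads from protein kinase C theta to NF-kB. Bcl10 read 599.4, 696.1 and 636.7 on activated arrays, against 371.6 and 402.7 on naive arrays. The log2 fold change was 0.71 (SE 0.15, at an adjusted p of 0.015). All 4 Bcl10 probe sets had activated arrays above both naive arrays, with log2 fold changes from 0.45 to 1.15, and 3 of the 4 passed over all probe sets. The gene no longer passed when the second activated array or either naive array was dropped (0.65, 0.65 and 0.77).

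Malt1, the paracaspase partner of BCL10, had a mean of 344 ± 52.6 (SD, n = 3) on activated arrays, against 483 ± 183 (SD, n = 2) on naive arrays, and its 3 probe sets lay between -0.51 and -0.25. The gene missed the threshold (adjusted p = 0.29) and passed in 1 of 19 alternative settings. Prkcq, protein kinase C theta, lay at 979 ± 98.4 (SD, n = 3) on activated arrays, against 1328 ± 240.0 (SD, n = 2) on naive arrays, its log2 fold change -0.43 (interval -0.81 to -0.04, adjusted p = 0.16), and the groups did not overlap. Plcg1, the phospholipase that produces the calcium and diacylglycerol signals, and Vav1, the exchange factor for Rac, had log2 fold changes of -0.28 and -0.20 (adjusted p = 0.52 and 0.56) with overlapping groups.

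Sos1 and Rasgrp1 encode Ras exchange factors. Sos1 read 168.7, 183.9 and 205.0 on activated arrays, against 256.7 and 327.2 on naive arrays. The groups were apart, and the log2 fold change of -0.60 ± 0.18 (SE) missed the threshold at an adjusted p of 0.059, but passed in 4 of 19 alternative settings. Its 4 dimmer probe sets, of which the brightest averaged 29.7 in activated and 41.4 in naive cells, lay between -0.33 and 0.55. Rasgrp1, which responds to diacylglycerol, read 1017.1, 1175.5 and 1472.6 on activated arrays, against 1104.4 and 1451.4 on naive arrays, and overlapped (log2 fold change -0.07, adjusted p = 0.88). Its other probe sets lay at 0.93, 0.85 and -0.02, with overlapping groups and none past the test.

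Among the 3 actin regulators none passed. Was, the Wiskott-Aldrich syndrome protein, and Wipf1, its stabilising partner WIP, had log2 fold changes of -0.08 and 0.21 (adjusted p = 0.82 and 0.60). Rhoh, whose product is needed to bring ZAP-70 to the receptor, had a mean of 666.5 ± 27.4 (SD, n = 3) on activated arrays, against 936 ± 12.3 (SD, n = 2) on naive arrays. The groups were far apart relative to their SDs, the second tested probe set was lower too at -0.72, and the gene's log2 fold change of -0.48 ± 0.15 (SE) had an adjusted p of 0.068. It passed in 2 of 19 alternative settings.

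Of the 5 phosphatases, CSK and its anchor, 2 rose and 1 fell, or 60%, where 10.5% of all tested genes were called. This difference was not tested. Ptpn22, which encodes PEP (LYP in humans), dephosphorylates the activating sites of Src family kinases and ZAP-70. It read 1021.7, 892.3 and 1159.2 on activated arrays, against 433.9 and 378.0 on naive arrays. The lowest activated array was more than 2 times the higher naive array, and the log2 fold change was 1.30 (SE 0.17, at an adjusted p of 7.7e-04). Ptpn6, the SH2 domain phosphatase SHP-1, read 791.1, 724.8 and 683.1 on activated arrays, against 474.4 and 473.5 on naive arrays, a log2 fold change of 0.61 (SE 0.15, at an adjusted p of 0.029). Its other probe set, with a shared-sequence suffix, overlapped between groups at 0.04, and averaging both brought the log2 fold change to 0.32 and ended the call. Ptpn6 no longer passed when the first or second activated array or either naive array was dropped (0.55, 0.62, 0.61 and 0.61), under median centring or with eBayes without trend.

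Pag1 encodes PAG, a transmembrane adaptor of lipid rafts that holds CSK, the kinase that switches off Src family kinases, at the membrane. It read 647.1, 554.6 and 627.6 on activated arrays, against 1423.5 and 1381.2 on naive arrays. Both naive arrays were more than 2 times the highest activated array, and the log2 fold change was -1.18 (SE 0.15, at an adjusted p of 7.3e-04). The 3 other Pag1 probe sets were dim and also below 0, at -0.71, -0.55 and -0.15, and the mean of all 4 was -0.65, still past the test. Csk itself was at 424 ± 50.4 (SD, n = 3) on activated arrays, against 438 ± 5.23 (SD, n = 2) on naive arrays, its log2 fold change -0.05 (interval -0.41 to 0.31, adjusted p = 0.90). Ptprc, the phosphatase CD45 that both primes and restrains Src family kinases, lay at 0.07 on the log2 scale (interval -0.29 to 0.42, adjusted p = 0.85).

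None of the 6 inhibitory adaptors passed on its brightest probe set, and 5 of them had groups that did not overlap, where 41.0% of all tested genes did not. Sla encodes SLAP, which directs the CD3-zeta chain to degradation. It read 829.5, 1607.0 and 1393.4 on activated arrays, against 722.1 and 756.9 on naive arrays. All activated arrays were above the naive ones, but activated replicate 1 lay close to them, and the log2 fold change of 0.72 ± 0.25 (SE) had an adjusted p of 0.0995. It passed in 3 of 19 alternative settings, among them without activated replicate 1, at 1.0, and as the mean of its 4 probe sets, at 0.93. A second Sla probe set, at 354.9, 454.3 and 421.7 on activated arrays, against 184.9 and 69.1 on naive arrays, passed over all probe sets with a log2 fold change of 1.70 (SE 0.31, at an adjusted p of 0.0087).

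Its relative Sla2, which encodes SLAP2, was at 83.7 ± 17.9 (SD, n = 3) on activated arrays, against 116 ± 7.07 (SD, n = 2) on naive arrays (log2 fold change -0.42, adjusted p = 0.24). Ubash3a, which encodes STS-2, a ubiquitin-binding suppressor of receptor signalling, read 439.8, 373.4 and 360.1 on activated arrays, against 282.8 and 224.7 on naive arrays. The log2 fold change of 0.60 ± 0.17 (SE) missed the threshold at an adjusted p of 0.057, and its other probe set lay at 0.04, while the gene passed in 4 of 19 alternative settings. Ubash3b, which encodes the phosphatase STS-1, was dim, at 44.7, 45.8 and 47.8 on activated arrays, against 63.3 and 48.6 on naive arrays, and its 3 probe sets differed in sign. The adaptors Dok1 and Dok2, which recruit Ras GTPase-activating protein, had log2 fold changes of 0.37 and -0.03 (adjusted p = 0.29 and 0.95). Differences between paralogs were not tested.

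Among the 4 remaining adaptors, 2 rose and 1 fell, or 75%, where 10.5% of all tested genes were called. This difference was not tested. Lax1 encodes LAX, a transmembrane adaptor related in structure to LAT that restrains lymphocyte signalling in mice. It read 154.1, 180.8 and 168.2 on activated arrays, against 62.4 and 49.5 on naive arrays. The ratio of mean intensities was 3.0, the highest among the brightest probe sets of the 41 genes, and the log2 fold change was 1.36 (SE 0.18, at an adjusted p of 9.6e-04). With a pseudocount of 64 it was 0.95, still past the test. Sh2d2a, which encodes TSAd, an adaptor whose transcript is known to be induced in stimulated T cells and which binds Src family kinases, read 291.8, 285.0 and 287.1 on activated arrays, against 163.8 and 176.4 on naive arrays. The 3 activated arrays were nearly equal, and the log2 fold change was 0.71 (SE 0.16, at an adjusted p of 0.016). It did not pass with the second activated array or either naive array dropped (0.72, 0.66 and 0.76).

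Sit1 encodes SIT, a transmembrane adaptor that binds SHP-2 and CSK and is known as a negative regulator. It read 265.7, 152.0 and 246.5 on activated arrays, against 489.1 and 510.9 on naive arrays. The naive arrays were close together and well above the highest activated array, with a log2 fold change of -1.16 (SE 0.22, at an adjusted p of 0.0080). Without naive replicate 2 the call was lost, at -1.12. Trat1 encodes TRIM, a transmembrane adaptor associated with the receptor complex. It read 472.5, 469.9 and 589.0 on activated arrays, against 511.5 and 545.6 on naive arrays, a log2 fold change of -0.06. The second Trat1 probe set had the opposite sign, at 0.49 with an adjusted p of 0.19.

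The 5 genes with a log2 fold change past 1 in size were Lax1 and Ptpn22, which were higher, and Tec, Pag1 and Sit1, which were lower in activated cells. The calls of Tec, Ptpn22, Pag1 and Lax1 held in all 19 alternative settings, and that of Sit1 in 18. Tec, Ptpn22, Lax1 and Sit1 each have 1 probe set. Settings that change the probe set rule therefore left their log2 fold changes unchanged, and agreement between probe sets could not be checked for them.

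**Figure D3:**
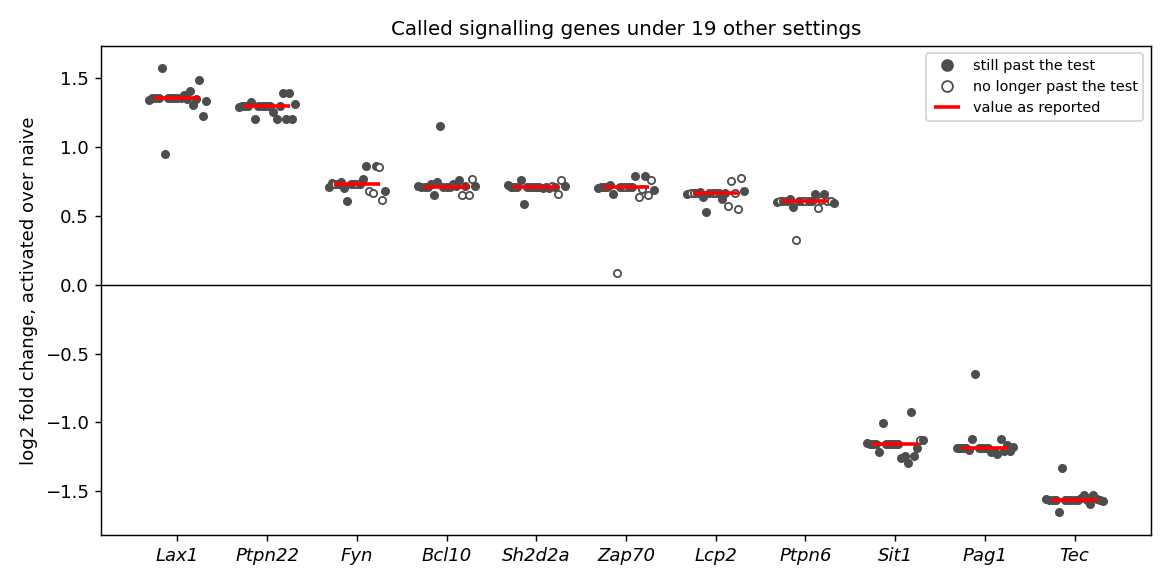
Log2 fold change (vertical axis, activated over naive) of the 11 called genes as reported (red bar) and under 19 other settings (points), filled where the gene still passed and open where it did not. The points of Tec, Pag1, Ptpn22 and Lax1 are all filled, and no point crosses 0.

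Of the 26 genes with more than 1 tested probe set, 17 had all of them on the same side of 0 and 9 did not, and none had probe sets called in opposite directions. Of 85 tested probe sets of the machinery, 12 were called higher and 3 lower, or 17.6%, where 7.75% of all 29201 tested probe sets were called, 4.80% higher and 2.94% lower. The 2 untested ones were dim probe sets of Plcg1 and Rhoh. Naive replicate 2 was at or under a ratio of 0.5 to naive replicate 1 on 6 probe sets with at least 100 on naive replicate 1 (of Cd247, Cd4, Malt1, Sla and 2 of Rasgrp1), and the reverse was seen on 0. The called probe sets of Cd4 and Sla described above are among these 6. The ratio of the 3' to the 5' control probe set of beta-actin, a measure of RNA integrity and labelling length, was 1.19, 1.29 and 1.25 on activated arrays, against 1.42 on naive replicate 1 and 1.78 on naive replicate 2. For Gapdh it was 0.740, 0.713 and 0.685 on activated arrays, against 0.742 and 0.786 on naive arrays. The part of these differences in the results was not tested.

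**Figure D4:**
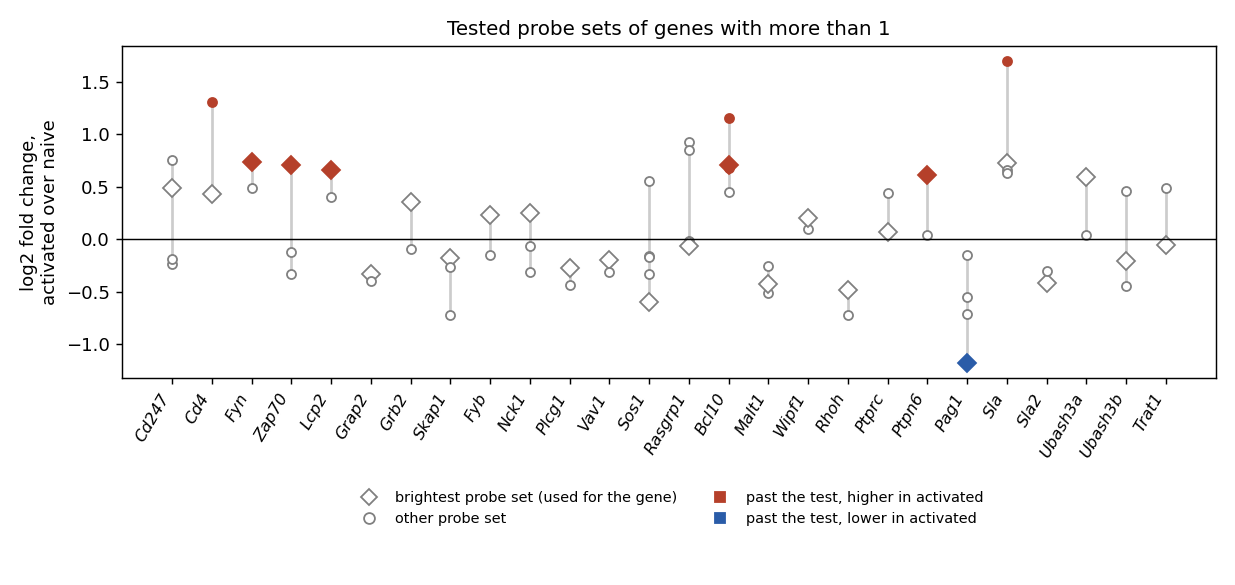
Log2 fold change (vertical axis, activated over naive) of every tested probe set of the 26 genes with more than 1; diamonds mark the brightest probe set, used for the gene, and filled symbols those past the test over all probe sets. Bcl10 has 4 probe sets above 0 and Pag1 has 4 below, while those of Zap70 run from -0.33 to 0.71.

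The arrays also fell into 2 sets by the bioC hybridisation control, which is added to each sample before hybridisation. Its intensity was 664 and 582 on activated replicates 1 and 2 and 634 on naive replicate 1, and 151 on activated replicate 3 and 181 on naive replicate 2. With it as a block, 10 genes of the machinery were higher and 6 lower, while the calls over all genes numbered 1949 (1090 higher, 859 lower), against 1352 without it. Tec differed by -1.53 on the high side and -1.62 on the low side, Ptpn22 by 1.11 and 1.58, Pag1 by -1.23 and -1.12, Lax1 by 1.22 and 1.49, and Sit1 by -1.22 and -1.01. With 1 naive array on each side, these are differences with no test.

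Other genes of receptor signalling, from a list of 71 of which 59 had a probe set and were tested, included 4 that were higher and 4 that were lower, or 13.6%, against 10.5% of all tested genes. The median log2 fold change of the 59 was 0.02. Among the exchange factors for Rac, where Vav1 did not pass, its relatives Vav2 and Vav3 did. Vav2 read 122.5, 125.2 and 103.2 on activated arrays, against 14.6 and 23.5 on naive arrays, near the filter intensity, and its log2 fold change was 1.93 (SE 0.21, at an adjusted p of 2.4e-04). That value was 0.86 as the mean of its probe sets, and 2.59 and 1.124 with pseudocounts of 1 and 64, and it passed in each of these. Vav3 read 190.5, 261.5 and 264.4 on activated arrays, against 78.8 and 113.6 on naive arrays, at 1.19 (SE 0.21, at an adjusted p of 0.0049). It did not pass with the first naive array dropped (0.96).

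The diacylglycerol kinases, which consume the second messenger that RASGRP1 and protein kinase C theta respond to, were called in opposite directions. Dgka read 1537.6, 1791.5 and 1856.3 on activated arrays, against 3140.7 and 3247.2 on naive arrays, its log2 fold change -0.88 (adjusted p = 0.0053). Dgkz read 4368.3, 4306.5 and 4786.2 on activated arrays, against 2478.7 and 3128.8 on naive arrays, its log2 fold change 0.68 (adjusted p = 0.028). The call of Dgkz did not hold when any one array was dropped, at 0.52 to 0.85, nor that of Dgka without naive replicate 2, at -0.86.

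Of the NF-kB branch, Map3k7, the kinase TAK1, read 340.8, 280.1 and 199.6 on activated arrays, against 136.9 and 125.4 on naive arrays (0.95, adjusted p = 0.020). Ikbkb, the catalytic subunit IKK-beta, read 509.9, 606.5 and 629.9 on activated arrays, against 1006.0 and 1370.7 on naive arrays (-0.999, adjusted p = 0.0058). The groups were apart for both genes and in opposite directions. Cish, a cytokine signalling inhibitor that also restrains PLC-gamma-1, read 103.6, 119.7 and 90.8 on activated arrays, against 250.2 and 228.8 on naive arrays (-1.09, adjusted p = 0.0033). Itpr3, an inositol trisphosphate receptor of the calcium branch, read 160.1, 135.3 and 144.4 on activated arrays, against 245.9 and 314.8 on naive arrays (-0.86, adjusted p = 0.012). Both were lower on every activated array than on either naive array. Averaging all probe sets ended the calls of Map3k7, at 0.16, and Ikbkb, at -0.33. Map3k7 also did not pass with the first or second activated or either naive array dropped, at values from 0.78 to 1.0, Ikbkb without naive replicate 2, at -0.78, and Itpr3 without activated replicate 2 or naive replicate 2, at -0.81 and -0.69. Cblb, a ubiquitin ligase that raises the threshold of activation, read 1106.0, 1898.7 and 1782.1 on activated arrays, against 1013.3 and 937.6 on naive arrays, and missed the threshold at 0.66 (adjusted p = 0.097). Without activated replicate 1 it passed, at 0.91.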

How the data were processed

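RNA of 3 activated and 2 naive samples, biological replicates from independent experiments per the labels, was hybridised to 1 Affymetrix array each. The deposited table holds 1 linear intensity per probe set; the method that summarised probes is not given in the sources used here. Each array's trimmed mean lay at 100, so no further scaling was applied. Of 45101 probe sets, 34945 had 1 gene symbol in the platform annotation, 932 several, 9160 none and 64 were controls. Intensities were taken as log2(intensity + 16), kept where above the 40th percentile of the array on at least 2 of 5 arrays, and reduced to the brightest probe set per gene. limma 3.58.1 in R 4.3.3 (lmFit, eBayes with trend) compared activated with naive samples over 12860 genes, and in a second fit over 29201 probe sets, with two-sided Benjamini-Hochberg adjusted p and a threshold of 0.05; the code was tested on simulated data. The genes of the machinery and the lists were chosen with earlier results of these data known. All listed genes of the machinery with a probe set are named, with every array's value for those that passed, changed by at least 0.58 on the log2 scale or had probe sets that disagreed; of the other pathway genes, those called and Cblb are named. Alternatives were quantile normalization, median centring, other filters, pseudocounts of 1 and 64, other probe set rules, other variance models, a replicate block, each replicate left out and, chosen after seeing the data, the bioC split as a block. Only 3 and 2 arrays limit the precision.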

Additional observations from a re-analysis of the deposited data

How the results depend on the processing

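Across 19 alternatives, 776 values of single genes of the machinery were obtained; 707 kept direction and side of the threshold, 34 no longer passed, 18 newly passed and 17 turned sign, none of these among the 11 called genes. Leaving out 1 replicate gave 648 to 1221 called genes against 1352 (463 to 713 higher, against 819, and 185 to 508 lower, against 533), 2 to 7 genes of the machinery higher against 8, and 2 to 3 lower against 3. It gave 1 to 4 other pathway genes higher and 1 to 5 lower, against 4 each, a median log2 fold change of the machinery from -0.0017 to 0.059, against -0.026, and 5 to 12 of its probe sets called, against 15. Genes called lower numbered 349 without a filter and 859 with the bioC split as a block, which also gave 6 genes of the machinery lower. With eBayes without trend, 4 genes of the machinery and 2 other pathway genes were higher and 7 probe sets were called. With the mean of all probe sets, 7 pathway genes were higher and the median was 0.039. The cause of these shifts was not tested.

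The deviations of same-numbered samples correlated at 0.17 and -0.13. With 2 naive arrays, whose deviations mirror each other, these values cannot show whether the replicate numbers pair the samples. In the fit with a replicate block, where activated replicate 3 has no partner, 11 genes of the machinery were higher and 4 lower, with 1767 of all genes called (974 higher, 793 lower) against 1352, 7 pathway genes were higher, and the median was 0.039. The signs that turned were of genes that did not pass. With the replicate block, Csk was at 0.024 and Dok2 at 0.039. Leaving out 1 replicate gave -0.33 to 0.043 for Skap1, -0.61 to 0.054 for Plcg1, -0.26 to 0.13 for Rasgrp1, -0.22 to 0.058 for Was, -0.031 to 0.44 for Wipf1, -0.14 to 0.024 for Csk and -0.10 to 0.048 for Dok2. With the mean of all probe sets, Nck1 was at -0.044, Rasgrp1 at 0.42 and Trat1 at 0.21. With probe sets without a suffix, Fyb was at -0.15 and Nck1 at -0.31, and with the bioC block Rasgrp1 was at 0.00079. Depth is not defined for these arrays, and every gene of the machinery lay above the filter intensity.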
